A study of Mus musculus with 36 samples.

Results

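The 10 genes described here are used as markers of the glia of the mouse olfactory system. Frzb, Npy, Sox10, Fabp7 and Ngfr were taken as genes of olfactory ensheathing cells, and Gfap, Aqp4, Aldh1l1, Slc1a2 and Gja1 as genes of astrocytes. The list is defined by gene name and was chosen with earlier results of these data known. It makes up 10 of the 24632 genes found in the tables of all 3 tissues. Whole-tissue RNA was sequenced from the olfactory bulb (OB), the main olfactory epithelium (MOE) and the vomeronasal organ (VNO) of C57BL/6 mice aged 6 months. The mice had been weaned at 3 weeks and kept 4 to a cage with their own sex (sex-separated) or with both sexes (sex-combined). In the group names S stands for sex-separated and C for sex-combined, and F for female and M for male, so the 4 groups were SF, SM, CF and CM. Each group had 3 libraries in each tissue, 36 in all. Each library was made from a pool that, by the series design, held RNA of 2 mice, although the methods of the study name a different number per pool. Litters were born in sex-combined cages and removed at once, so these groups also differ from the sex-separated ones in breeding. At weaning, sex-separated cages were moved to rooms that held mice of their own sex only. Room therefore cannot be told apart from sex in SF against SM, or from housing. None of the mice is described as carrying a mutation, transgene or drug treatment.

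Olfactory ensheathing cells are glia that wrap the axons of olfactory and vomeronasal sensory neurons from the epithelium to the outer layer of the bulb, and they derive from the neural crest. Astrocytes are glia of the brain, so they are present in the bulb, where they take up glutamate, buffer potassium and contact blood vessels, and they are not residents of the nasal epithelia. Few of these genes belong to a single cell type: Npy is also made by interneurons of the bulb, Sox10 by oligodendrocytes and Schwann cells, and Ngfr by Schwann cells. In bulk tissue, fewer cells of a type and less RNA per cell cannot be told apart.

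The 250 bases before the annotated start are shown for Npy, which had the largest difference of the 10 genes between OB and VNO, for Gfap, which had the largest between OB and MOE, and for Slc1a2, whose assigned start differed between tissues. They come from RefSeq on GRCm38.p6 and are written 5′ to 3′ on the strand of the gene, and capitals mark GGGCGG, the GC box. The Npy stretch lies at chr6:49822460-49822709 on the plus strand, the Gfap stretch at chr11:102897201-102897450 on the minus strand, and the Slc1a2 stretch at chr2:102706188-102706437 on the plus strand.
Npy: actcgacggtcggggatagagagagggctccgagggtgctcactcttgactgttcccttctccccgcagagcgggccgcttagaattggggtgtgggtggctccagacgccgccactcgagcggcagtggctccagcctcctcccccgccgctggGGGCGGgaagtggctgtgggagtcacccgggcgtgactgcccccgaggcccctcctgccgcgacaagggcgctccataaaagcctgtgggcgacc
Gfap: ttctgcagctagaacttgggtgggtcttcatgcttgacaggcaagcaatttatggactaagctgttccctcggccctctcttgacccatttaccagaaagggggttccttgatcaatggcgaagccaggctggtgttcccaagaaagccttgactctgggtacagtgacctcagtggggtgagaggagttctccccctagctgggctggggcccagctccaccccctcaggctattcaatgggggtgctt
Slc1a2: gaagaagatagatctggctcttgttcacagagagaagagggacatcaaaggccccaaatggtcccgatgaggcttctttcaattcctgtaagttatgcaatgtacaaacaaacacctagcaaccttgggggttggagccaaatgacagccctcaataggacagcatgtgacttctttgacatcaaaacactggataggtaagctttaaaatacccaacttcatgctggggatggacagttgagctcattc

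Entries of 8 of the 10 members were used from the promoter table. Searched on both strands, the GC box GGGCGG was present in 4 of these 8 (Frzb, Npy, Ngfr and Aldh1l1) and in 32.7% of the 32851 promoters of the table. The SOX core ACAAAG was present in 16.5% of all promoters, the NFI half-site TTGGCA in 12.3% and the TATA box TATAAA in 12.4%, and none of these 3 letter strings was found in the 8 members. GC content ran from 44.8% for Slc1a2 to 70.4% for Ngfr, with a median of 52.4% over the table. A match or its absence describes only the letters of this window.

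The libraries were compared in fragments per kilobase of transcript per 1000000 mapped fragments (FPKM), the unit the authors deposited. Estimated from the width of the deposited confidence limits, the libraries held from 3016524 to 6779893 fragments in annotated transcripts, with medians of 6012839 in OB, 5323147 in MOE and 5500980 in VNO. Where a gene has several transcripts these limits also carry the uncertainty of assigning fragments, so such estimates run low and totals are lower estimates. The labelled sex matched Xist and Ddx3y, and the labelled tissue matched the olfactory and vomeronasal genes Omp, Cnga2 and Trpc2, in 36 of 36 libraries. MOE-CM replicate 3 stood apart: it was the lowest of the 12 MOE libraries in 75.3% of MOE genes and in 6 of the 10 members, and the upper quartile of its FPKM values was 6.248 against 8.722 to 10.91 in the other MOE libraries. Without it, the number of members called in the tissue comparisons below was the same.

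Across tissues, the 10 genes did not form a single pattern. Frzb, Npy, Fabp7, Gfap, Aldh1l1, Slc1a2 and Gja1 had their highest mean in OB. Sox10 was near its OB level in VNO, Ngfr was highest in VNO, and Aqp4 was highest in MOE. Summed over the 5 ensheathing genes, the level was 319 ± 35.8 FPKM in OB, 75.2 ± 14.3 in MOE and 13.7 ± 1.69 in VNO (SD, n = 12 libraries per tissue), and Fabp7 supplied most of it. The 5 astrocyte genes summed to 147 ± 10.3 FPKM in OB, 105 ± 14.8 in MOE and 68.0 ± 3.85 in VNO, and in the nasal tissues most of that sum was Aqp4.

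**Figure D1:**
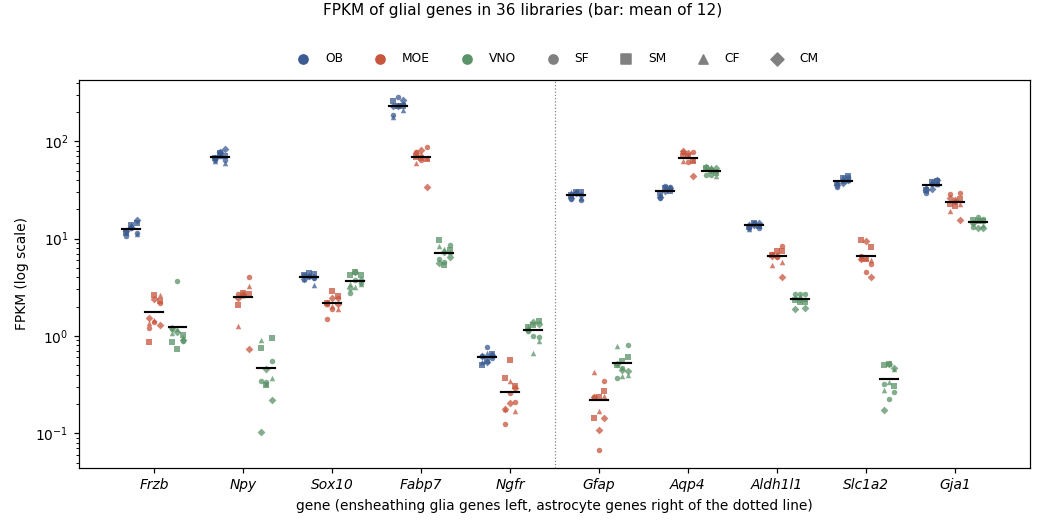
FPKM (log scale) of the 10 genes in each of the 36 libraries, by tissue (colour) and group (marker), with the mean of 12 libraries as a bar. OB libraries lie above all MOE and VNO libraries for Frzb, Npy, Fabp7, Gfap, Aldh1l1 and Slc1a2, and Aqp4 is the one gene whose OB libraries lie below all others.

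Among the ensheathing genes, Fabp7 (mm9 chr10:57504729-57508256), a fatty acid binding protein of radial and ensheathing glia, was the most abundant. Its FPKM ranged from 176.9 through a median of 231.6 to 282.8 in OB, from 34.0 through 68.3 to 87.8 in MOE, and from 5.343 through 7.212 to 9.612 in VNO. The tissues did not overlap, and Fabp7 was higher than 99.6% of genes in OB. The mean fell 3.39-fold from OB to MOE and a further 9.59-fold from MOE to VNO. On the log2(FPKM + 0.5) scale used for all tests, the limma differences were 1.78 (SE 0.113, adjusted p = 4.28e-15) for OB over MOE and 3.16 (SE 0.113, adjusted p = 5.46e-21) for MOE over VNO.

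Npy (mm9 chr6:49772709-49779504) encodes neuropeptide Y, made by ensheathing glia and by interneurons. It was measured at 59.48 to 82.4 FPKM in OB (median 68.7), at 0.738 to 4.05 in MOE (median 2.66) and at 0.104 to 0.943 in VNO (median 0.356). Every OB library exceeded every nasal library, and MOE and VNO overlapped. The OB mean was 27.9 times the MOE mean and 149 times the VNO mean, and the VNO values rested on 1 to 8 estimated fragments per library. The differences were 4.61 (SE 0.139, adjusted p = 2.15e-23 by limma) for OB over MOE and 1.61 (SE 0.139, adjusted p = 1.13e-11) for MOE over VNO. The list of 8 bulb neuron genes moved with Npy: its summed FPKM was 312.1 to 398.7 in OB, 1.54 to 4.21 in MOE and 0.886 to 2.44 in VNO, and its part in the Npy difference was not tested.

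Frzb (mm9 chr2:80252127-80287553), a secreted Wnt antagonist found in ensheathing glia of the outer bulb, followed Npy at a lower level. It ranged from 10.7 through 12.3 to 15.4 FPKM in OB, from 0.870 through 1.501 to 2.63 in MOE and from 0.736 through 1.05 to 3.64 in VNO. The OB libraries stood clear of both nasal tissues, which overlapped each other. The OB mean was 7.14 times that of MOE (log2 difference 2.57, SE 0.143, limma adjusted p = 1.52e-16). MOE exceeded VNO by 0.42 (SE 0.143, adjusted p = 0.00872), which became 0.20 with adjusted p = 0.185 when each library was scaled by its upper quartile. In VNO, a single library, SF replicate 2 at 3.637, lay far above the other 11, whose highest value was 1.219.

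Sox10 and Ngfr departed from this order. Sox10 (mm9 chr15:78985343-78994920) is the transcription factor of the neural crest lineage needed for ensheathing glia, Schwann cells and oligodendrocytes, and it ranged from 3.30 through 4.08 to 4.38 FPKM in OB, from 1.48 through 2.14 to 2.88 in MOE and from 2.76 through 3.62 to 4.57 in VNO. OB lay above all MOE libraries and overlapped VNO. Sox10 was 0.65 lower in MOE than in VNO (log2 scale, SE 0.0607, limma adjusted p = 6.28e-11). OB and VNO differed by 0.12 (SE 0.0607, adjusted p = 0.0748), a difference that turned to −0.16 (adjusted p = 0.0249) with upper quartile scaling. It lay between 0.12 and 0.15 and passed the threshold when the MOE libraries were not fitted, or when MOE-SF replicate 3, VNO-SF replicate 2, VNO-CM replicate 2 or OB-CF replicate 3 was left out.

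Ngfr (mm9 chr11:95430140-95449012), the low-affinity neurotrophin receptor p75 and a surface marker of ensheathing and non-myelinating Schwann cells, was the scarcest of the 5 genes in OB. It ranged from 0.504 through 0.620 to 0.761 FPKM in OB, from 0.123 through 0.235 to 0.566 in MOE and from 0.661 through 1.19 to 1.41 in VNO. All VNO libraries were above all MOE libraries, and the OB range met both others. The VNO mean was 4.27 times the MOE mean and 1.86 times the OB mean. The MOE to VNO difference was −1.098 (log2 scale, SE 0.0629, limma adjusted p = 7.21e-16), and OB was 0.55 below VNO (SE 0.0629, adjusted p = 2.79e-09), a difference that shrank to −0.13 (adjusted p = 0.0782) after quantile normalization. The summed FPKM of 5 myelinating Schwann cell genes was also highest in VNO, at 8.72 to 11.7 against 5.14 to 7.08 in OB and 3.52 to 5.40 in MOE. Its part in the Sox10 and Ngfr levels was not tested, nor was that of the 8 myelinating oligodendrocyte genes. The oligodendrocyte genes summed to 187.4 to 251.8 FPKM in OB, 17.7 to 37.1 in MOE and 13.7 to 18.1 in VNO. Mog was at 0 in all MOE libraries and Opalin at 0 in all VNO libraries. Most of the MOE sum, 29.4 FPKM on average, was Ermn, named after its values were seen. Ermn averaged 20.7 FPKM in MOE against 4.36 in OB and 0.502 in VNO.

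Among the astrocyte genes, Gfap (mm9 chr11:102748650-102758514), the intermediate filament protein of astrocytes, had the largest OB to MOE ratio of the 10 genes. It ranged from 24.8 through 28.7 to 30.7 FPKM in OB, from 0.0671 through 0.236 to 0.423 in MOE and from 0.372 through 0.481 to 0.807 in VNO. The OB mean was 129 times the MOE mean and 53.9 times the VNO mean, while MOE and VNO overlapped. The MOE values came from 2.11 to 16.1 estimated fragments per library and the VNO values from 13.1 to 37.1. The limma difference was 5.33 (SE 0.0748, adjusted p = 6.72e-32) for OB over MOE. The VNO mean was 2.39 times the MOE mean, at 0.522 and 0.219 FPKM. Over both nasal tissues together the mean was under 0.5 FPKM. Gfap thus entered the MOE and VNO comparison only through its OB level, so this ratio is given without a test.

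Aqp4, on chromosome 18, encodes the water channel of astrocyte endfeet, and its order was the opposite of that of Gfap. It ranged from 26 through 31.8 to 34.7 FPKM in OB, from 44.18 through 69.7 to 78.9 in MOE and from 44.29 through 50.9 to 54.7 in VNO. No OB library reached the lowest nasal library. The MOE mean was 2.19 times and the VNO mean 1.61 times the OB mean, and Aqp4 was above 98.6% of genes in MOE. OB was 1.11 below MOE (log2 scale, SE 0.0761, limma adjusted p = 2.73e-14) and 0.68 below VNO (SE 0.0761, adjusted p = 1.58e-09). MOE exceeded VNO by 0.43 (SE 0.0761, adjusted p = 8.60e-06), but this direction flipped to −0.093 (adjusted p = 0.0125) after quantile normalization. In the nasal tissues, where Gfap was read from few fragments, the level of Aqp4 thus did not go with that of Gfap.

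Aldh1l1 (mm9 chr6:90500787-90549165), a folate enzyme expressed throughout astrocytes, fell stepwise from OB to MOE to VNO without overlap. Its lowest, median and highest FPKM were 12.45, 13.7 and 14.6 in OB, 4.06, 6.72 and 8.40 in MOE, and 1.91, 2.38 and 2.71 in VNO. OB exceeded MOE by 1.02 (SE 0.0609, limma adjusted p = 1.02e-15) and MOE exceeded VNO by 1.28 (SE 0.0609, adjusted p = 7.08e-18).

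Gja1 (mm9 chr10:56097106-56110225), the gap junction protein connexin 43, showed the smallest spread between tissues of the genes that fell in that order. It ranged from 29.2 through 36.1 to 39.6 FPKM in OB, from 15.4 through 24.1 to 29.4 in MOE and from 12.8 through 15.0 to 16.8 in VNO, so that neighbouring tissues overlapped. OB exceeded MOE by 0.58 (SE 0.0743, limma adjusted p = 3.09e-08) and MOE exceeded VNO by 0.66 (SE 0.0743, adjusted p = 3.13e-09).

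Slc1a2 (mm9 chr2:102498840-102630941) encodes GLT-1, the main glutamate transporter of astrocytes. It ranged from 33.6 through 39.7 to 43.7 FPKM in OB, from 4.08 through 6.22 to 9.61 in MOE and from 0.174 through 0.331 to 0.513 in VNO. No library of one tissue reached the range of another. The OB mean was 6.00 times the MOE mean, which in turn was 18.1 times the VNO mean. The log2 differences were 2.53 (SE 0.0929, limma adjusted p = 3.71e-21) for OB over MOE and 3.01 (SE 0.0929, adjusted p = 1.42e-22) for MOE over VNO.

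**Figure D2:**
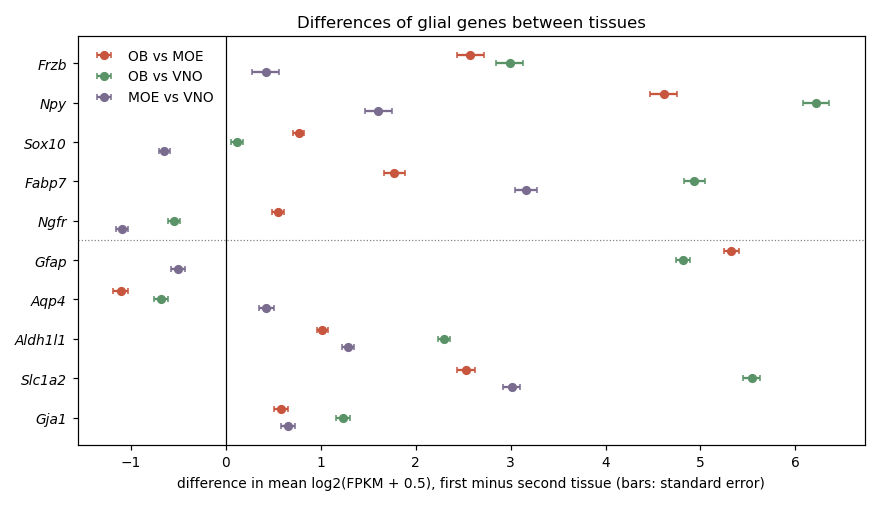
Difference in mean log2(FPKM + 0.5) between tissues for each gene (limma, 12 libraries per tissue), with the standard error as bars and positive values where the first-named tissue was higher. Npy, Gfap and Slc1a2 reach differences of 4.61 to 6.22, 4.82 to 5.33 and 2.53 to 5.54 between OB and the nasal tissues, and Aqp4 lies below 0 in both OB comparisons.

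Differences between these tissues were the rule for all genes, so the number of members that passed the test carried little information. Of 14635 genes tested, 85.0% passed for OB against MOE, 85.8% for OB against VNO and 82.6% for MOE against VNO, at an adjusted p of 0.05. The members that passed were 10 of 10 for OB against MOE, with 9 higher and 1 lower in OB where 39.3% and 45.7% of all genes were. For OB against VNO they were 9 of 10, with 7 higher and 2 lower in OB against 48% and 37.8% of genes. For MOE against VNO they were 10 of 10, with 7 higher and 3 lower in MOE against 48.6% and 33.9%. Genes were kept by their mean over all 36 libraries. Ngfr in OB against MOE and Gfap in MOE against VNO passed that filter only through the tissue not compared, and 9 of 9 members were called in each comparison when only the compared libraries were fitted. Libraries of OB and MOE did not overlap for 8 members, against 51.1% of all genes. For OB and VNO this held for 8 members against 62.5% of genes, and for MOE and VNO for 4 members against 34.8%. The median log2 difference over all genes was −0.07, 0.12 and 0.15 in the 3 comparisons, and upper quartile scaling moved it to −0.08, −0.10 and −0.08.

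Further genes of both glial types were examined from lists that, like the members, were chosen with earlier results of these data known. Of 12 other ensheathing glia genes, 9 were higher and 3 lower in OB than in MOE, and 10 were higher and 2 lower in OB than in VNO, with median log2 differences of 1.36 and 1.52. Among the largest differences between OB and MOE were those of Vtn, which encodes vitronectin (4.97, SE 0.0879, limma adjusted p = 2.24e-29), the glial receptor gene Gpr37l1 (4.07, SE 0.0739, adjusted p = 4.44e-29) and Prss56 (2.55, SE 0.0488, adjusted p = 1.61e-28). Prss56 was listed at 0 in all VNO libraries. The 3 genes that were lower in OB than in MOE, named after their values were seen, were Erbb3, the neuregulin receptor of crest-derived glia (−1.19), the transcription factor Sox2 (−0.62) and the lipocalin gene Apod (−0.96).

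Of 16 other astrocyte genes, 13 were higher and 3 lower in OB than in MOE, and 14 were higher and 2 lower in OB than in VNO, with medians of 2.61 and 2.89. The glutamate transporter Slc1a3 was measured at 94.0 ± 9.02 FPKM in OB, 2.65 ± 0.519 in MOE and 1.79 ± 0.250 in VNO (SD, n = 12). The GABA transporter Slc6a11 stood at 41.6 ± 4.34 in OB against 0.0982 ± 0.116 in MOE. The largest OB to MOE differences were those of Mlc1, a membrane protein of astrocyte endfeet (6.57, SE 0.0749, limma adjusted p = 4.33e-34), Slc6a11 (6.15, SE 0.0559, adjusted p = 2.90e-36), Slc1a3 (4.92, SE 0.0702, adjusted p = 9.99e-32) and the glycolytic gene Aldoc (3.44, SE 0.0775, adjusted p = 1.15e-26). The 3 genes that were lower in OB than in MOE, as Aqp4 was, are again named after their values were seen: the intermediate filament gene Vim (−1.07), the transcription factor Sox9 (−0.72) and the inhibitor of DNA binding Id4 (−1.98). Between MOE and VNO, 8 ensheathing genes of the list were higher and 2 lower in MOE, and 9 astrocyte genes were higher and 4 lower, with medians of 0.19 and 0.25.

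Slc1a2 differed between tissues in its assigned transcript as well as in its level. The deposited tables list 3 RefSeq transcripts of Slc1a2, which begin at mm9 chr2 position 102498840 (NM_001077514) or at 102546595 (NM_001077515 and NM_011393). In all 12 OB libraries the whole FPKM of the gene was assigned to NM_001077514, at 33.6 to 43.7 FPKM. In MOE, NM_001077515 was above 0 in 12 libraries and held a mean of 91.7% of the gene (lowest 52.8%, highest 100%), whereas NM_001077514 was above 0 in 1 library. The share of NM_001077514 was 100% in OB and 1.11% ± 3.86 in MOE (SD, n = 12), a difference of 98.9 percentage points (permutation test, two-sided, p = 1e-05, the smallest these permutations can give; adjusted p = 4e-05 over 12 share tests). In VNO, where the whole gene was at most 0.513 FPKM, it averaged 22.7% ± 26.

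The 2 starts use different first coding exons, so both coding starts are shown. They were read from GENCODE M21 on GRCm38, plus strand, 5′ to 3′, 48 bases from the start codon, and capitals mark the bases encoded by the first exon. The first exon of the upstream transcript lies at chr2:102658659-102659301 and that of the downstream transcript at chr2:102706438-102706483, with starts 47779 bases apart.
NM_001077514: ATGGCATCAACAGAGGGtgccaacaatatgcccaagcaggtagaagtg
NM_001077515: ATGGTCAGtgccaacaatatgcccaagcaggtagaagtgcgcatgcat
The upstream first exon contributes 17 coding bases and the downstream one 8, after which both read the same second exon. The 250 bases printed above for Slc1a2 end at the downstream start, which is the one assigned in MOE. In the deposited tables both transcripts end at mm9 chr2 position 102630941.

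FPKM divides by transcript length, so the transcript assigned enters the level, and the deposited tables leave the length empty. Read coverage along Slc1a2 was not analysed here. Of the other members with more than one transcript, Aqp4 had its leading transcript at 84.3% ± 6.29 of the gene in OB, 75.2% ± 4.02 in MOE and 66.0% ± 3.56 in VNO (SD, n = 12, permutation tests with adjusted p = 0.00024 for OB and MOE and 9e-05 for MOE and VNO). The leading Aqp4 transcript is named NM_009700 in the MOE tables and NM_001317729 in the others, at an identical locus. For Aldh1l1, the share of NM_027406 was 57.8% ± 18.5 in OB, 35.7% ± 19.9 in MOE and 63.7% ± 29.7 in VNO, so the shares varied widely within a tissue although the OB and MOE means differed (permutation test, adjusted p = 0.0208).

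**Figure D3:**
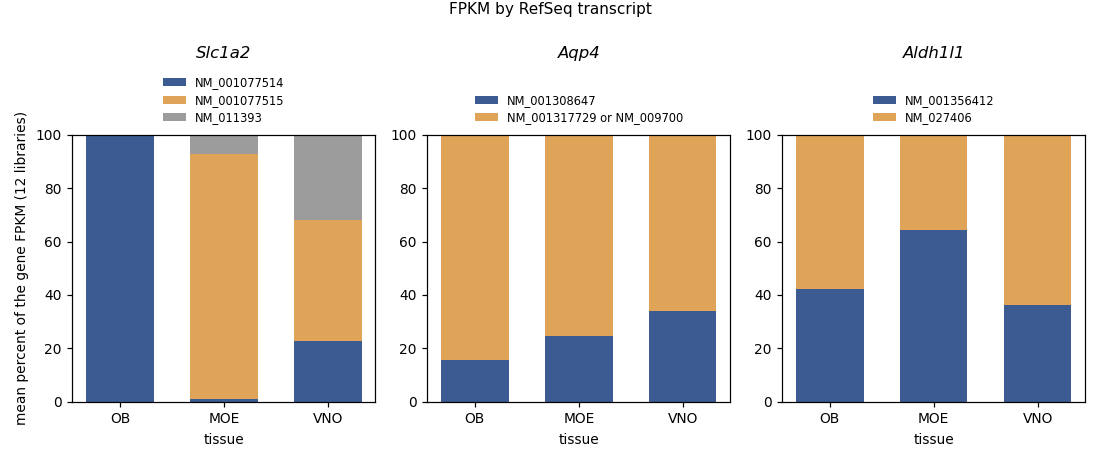
Mean percent of the FPKM of Slc1a2, Aqp4 and Aldh1l1 assigned to each RefSeq transcript, over 12 libraries per tissue; transcripts at 0 in every library are not drawn. Slc1a2 is 100% NM_001077514 in OB and 91.7% NM_001077515 in MOE, and the leading Aqp4 transcript goes from 84.3% in OB to 66.0% in VNO.

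The design asks whether females and males differ, and whether the difference depends on sharing a cage with the other sex. No member passed an adjusted p of 0.05 in limma for SF against SM, CF against CM, the difference between those differences, or housing, in any tissue. All 10 members could be tested in OB and 8 each in MOE and VNO, since Ngfr and Gfap in MOE and Npy and Slc1a2 in VNO had a mean under 0.5 FPKM. Called genes were rare among all genes: 0.0390%, 0.0944% and 0.0722% passed for SF against SM in OB, MOE and VNO, and 0.0469%, 0.0436% and 0.0433% for CF against CM. For the interaction the shares were 0.00781%, 0.0291% and 0%, for housing 0.00781%, 0.102% and 0%, and for females against males averaged over housing 0.0625%, 0.0727% and 0.123%. At an unadjusted p under 0.05, 0 members were found in OB in these 4 comparisons, 1 in MOE (Aldh1l1, housing) and 3 in VNO (Aldh1l1 in both sex comparisons, Sox10 in SF against SM and Ngfr in CF against CM). Over all genes this held for 292 to 728 of 12806 in the OB comparisons, for 454 of 13764 for housing in MOE, and in VNO for 1222 of 13855 for SF against SM and 544 for CF against CM. Of the genes on the glial and other cell type lists, 1 passed in a comparison within a tissue: Gad1 of the bulb neuron list, the GABA-synthesizing enzyme, in VNO for SF against SM (−0.86, limma adjusted p = 0.0301) and for females against males averaged over housing (−0.66, adjusted p = 0.0133).

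**Figure D4:**
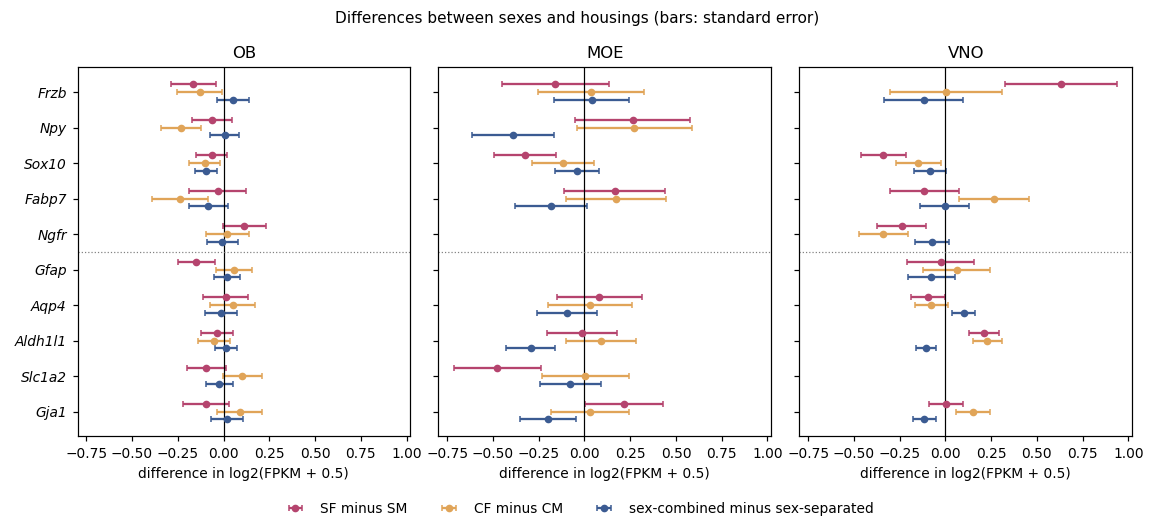
Difference in log2(FPKM + 0.5) for SF minus SM, CF minus CM and sex-combined minus sex-separated housing in each tissue, with standard errors; members under 0.5 FPKM on average are left out. Differences in OB lie between −0.24 and 0.11, and each gene drawn in both tissues has wider bars in MOE than in OB.

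In OB the differences between groups were small. For SF against SM the log2 differences ran from −0.16 for Frzb to 0.11 for Ngfr, and for CF against CM from −0.24 for Fabp7 to 0.10 for Slc1a2. Npy was measured at 63.09, 70.0 and 59.48 FPKM in CF and at 67.4, 76.7 and 82.4 in CM, and these values overlapped (log2 difference −0.23, SE 0.11, limma adjusted p = 0.867). No member separated the OB groups, where 8.58% of genes did so for SF and SM and 10.2% for CF and CM. No member had all females apart from all males in OB or MOE either, as 0.359% and 0.109% of genes did. With library weights, which let noisier libraries count for less, Frzb (−0.28, adjusted p = 0.0361) and Gfap (−0.24, adjusted p = 0.0354) passed in OB for SF against SM and Npy for CF against CM (−0.28, adjusted p = 0.0477). These weights raised the called genes in OB from 5 to 1381 for SF against SM and from 6 to 666 for CF against CM. Averaged over housing, Frzb (−0.21), Npy (−0.20) and Sox10 (−0.14) were lower in OB females than males with these weights, at adjusted p of 0.0299, 0.0248 and 0.0463, while the called genes rose from 8 to 1840, of which 1599 were lower in females. Aldh1l1 in OB for CF against CM was −0.05, and −0.64 when its highest transcript alone was used (SE 0.453, adjusted p = 0.901).

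In MOE the spread between libraries was larger. Slc1a2 was measured at 6.54, 4.58 and 5.53 FPKM in SF and 9.61, 6.15 and 8.15 in SM, and the groups overlapped (log2 difference −0.48, SE 0.238, limma adjusted p = 1). Ngfr, too low for the test, was at 0.123, 0.259 and 0.210 in SF and 0.373, 0.566 and 0.305 in SM, so the groups did not overlap, as for 14.1% of tested MOE genes. Aldh1l1 was lower in the sex-combined groups (log2 difference to the sex-separated groups −0.29, SE 0.136, unadjusted p = 0.0448 and adjusted p = 0.791 by limma). MOE-CM replicate 3 held its lowest value, at 4.06 FPKM, and without that library the difference was −0.19 (adjusted p = 1). Sox10 was at 1.91 to 2.12 FPKM in CF and 2.123 to 2.43 in CM without overlap, as for 4.14% of genes. With library weights, Sox10 passed for SF against SM (−0.54, limma adjusted p = 0.0150), and the interaction passed for Aqp4 (0.44, adjusted p = 0.03) and Gja1 (0.49, adjusted p = 0.0311), while the called genes of MOE rose from 13 to 1777 and from 4 to 2414.

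In VNO, Aldh1l1 was the member that separated the sexes. It was measured at 2.709, 2.696 and 2.701 FPKM in SF, at 2.524, 2.562 and 2.40 in CF, at 2.325, 2.229 and 2.247 in SM and at 1.907, 2.367 and 1.915 in CM. All 6 female libraries were above all 6 male libraries, as for 0.628% of VNO genes in either direction, and CF and CM taken alone did not overlap for 8.68% of genes. Averaged over housing, the log2 difference between females and males was 0.22 (SE 0.0563, limma adjusted p = 0.312), so it did not pass the test over all 13855 genes, of which 0.123% did. Over 20 alternative settings it remained positive, at 0.19 to 0.28, with adjusted p from 0.138 to 0.927. The 2 transcripts of Aldh1l1 shared the gene unevenly in VNO, with 18.7% to 100% assigned to NM_027406, and the highest transcript alone gave 0.28 with a larger error (SE 0.336, adjusted p = 0.927). The separation of the sexes was seen in the sum over both transcripts.

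Sox10 and Ngfr went the other way in VNO. Sox10 was at 2.757, 3.746 and 3.511 FPKM in SF and 4.209, 4.553 and 4.223 in SM, without overlap (log2 difference −0.34, SE 0.124, limma adjusted p = 0.518). Ngfr was at 1.136, 0.9936 and 0.9743 in SF and 1.237, 1.290 and 1.406 in SM, also without overlap (−0.24, SE 0.135, adjusted p = 0.616). Groups of SF and SM did not overlap for 14.6% of VNO genes. In the sex-combined mice both genes overlapped between the sexes. Sox10 was at 3.15 to 3.45 FPKM in CF and 3.11 to 4.57 in CM, and Ngfr at 0.661 to 1.23 and 1.14 to 1.38. The log2 difference for CF against CM was −0.15 for Sox10 (SE 0.124, adjusted p = 1 by limma) and −0.34 for Ngfr (SE 0.135, adjusted p = 1), the latter larger than for SF against SM. The interaction was −0.19 (SE 0.176, adjusted p = 0.894) for Sox10 and 0.10 (SE 0.19, adjusted p = 0.948) for Ngfr. VNO-SF replicate 1 held the lowest Sox10 value and was the lowest VNO library in 39.7% of VNO genes. The upper quartile of its FPKM values was 6.747, against 7.388 to 8.113 in the other VNO libraries. Over 21 alternative settings, among them leaving it out, the Sox10 difference for SF against SM lay between −0.42 and −0.23. The part of this library in the list values below was not tested. Other cell type lists moved in the same comparison of SF with SM, where the median over all genes was −0.08. All 7 olfactory sensory neuron genes were lower in SF (median −0.40, 4 at an unadjusted p under 0.05), as were the 4 sustentacular genes tested (median −0.45), the 5 nasal gland genes (−0.34) and the 3 myelinating oligodendrocyte genes tested (−0.22), and none of these passed the adjusted test. The nasal gland sum overlapped between the groups, at 73.3 to 1831 FPKM in SF and 105.2 to 624.3 in SM. Of 3 myelinating Schwann genes tested, 2 were higher, with a median of 0.01. The 12 other ensheathing glia genes summed to 101.4 to 110.6 FPKM in SF and 119 to 137 in SM, without overlap. Summed bulb neuron genes (0.886 to 1.11 against 2.02 to 2.24) and neuroblast genes (6.51 to 7.22 against 7.82 to 8.16) were lower too. So were endothelial genes (14.5 to 19.6 against 19.7 to 20.9), all without overlap. In VNO, Gad1 supplied most of the bulb neuron sum (mean 1.36 of 1.65 FPKM). Sp8 supplied most of the neuroblast sum (mean 5.78 of 7.63 FPKM). The microglia, fibroblast and myelinating Schwann sums overlapped between SF and SM. The part of these lists in the Sox10 and Ngfr values was not tested. Frzb had the largest VNO difference, 0.63 for SF against SM (SE 0.304, adjusted p = 0.581), and without SF replicate 2 it was 0.15 (adjusted p = 0.745).

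**Figure D5:**
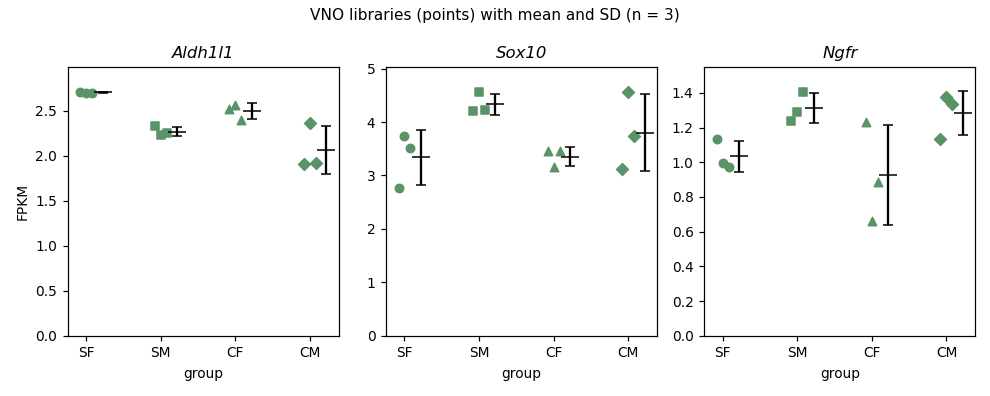
FPKM of Aldh1l1, Sox10 and Ngfr in the 12 VNO libraries by group, with mean and SD (n = 3 libraries) beside the points and the axis from 0. Aldh1l1 lies at 2.40 to 2.71 in females and 1.91 to 2.37 in males, while for Sox10 and Ngfr the SF libraries lie below the SM libraries and CF and CM overlap.

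Correlation of members across the 12 libraries of a tissue was examined in 45 pairs per tissue. In OB 4 pairs passed (permutation test, adjusted p of 0.05), in MOE 8 and in VNO 0. How many pairs of other genes would pass was not determined, so these counts do not set the members apart. MOE-CM replicate 3 was the lowest MOE library in 75.3% of genes, and OB-SF replicate 1 the lowest OB library in 34.6%. The part of such library-wide shifts in the correlations was not tested. The pair that held after quantile normalization in OB was Slc1a2 and Gja1, with Pearson's r = 0.92 (permutation p = 2e-05, adjusted p = 0.0009) and Spearman's rho = 0.85 (permutation p = 0.00087). The r was 0.83 without the 2 libraries farthest from the median and 0.93 on deviations from the group means. After quantile normalization it was 0.89 (adjusted p = 0.009). The other 3 OB pairs no longer passed. In MOE the strongest pair was Fabp7 and Aqp4, with r = 0.96 and rho = 0.90 (permutation p = 5e-05 and 0.00029, adjusted p = 0.00225), but r was 0.23 after quantile normalization (adjusted p = 0.855), and 2 pairs were left without MOE-CM replicate 3. The MOE pair that passed after quantile normalization was Npy and Fabp7, with r = 0.88 (permutation p = 0.00068, adjusted p = 0.009) and rho = 0.50 (permutation p = 0.103), and r = 0.85 after normalization (adjusted p = 0.0194). Its r was 0.49 without the 2 libraries farthest from the median, so it rested on those libraries.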

How the data were processed

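RNA depleted of ribosomal RNA was sequenced as stranded paired-end libraries. Per the labels, the authors aligned reads to mm9 with TopHat2 2.1.0 and deposited FPKM values per RefSeq transcript with confidence limits from Cufflinks 2.2.1.0, so counts were not used, and the strand setting is not given in the sources used here. Transcripts were named through RefSeq and GENCODE M21 tables and FPKM summed by gene. There were 40150 entries in each MOE table and 40008 entries in each VNO or OB table. Genes with a failed estimate in any library of a tissue were left out (1 in OB, 5 in MOE, 1 in VNO). Fragments were estimated from the limits, taken as 2 SD wide on each side, and describe counting error only; they run low for genes with several transcripts, whose limits also hold assignment error. A gene with a mean of at least 0.5 FPKM was tested as log2(FPKM + 0.5) with limma 3.58.1 (R 4.3.3), with a trended variance and Benjamini-Hochberg adjustment over all genes at 0.05. Within-tissue fits used 12 libraries in 4 groups, and tissue comparisons used 36. The female and male average over housings and the fit without MOE-SF replicate 2 and MOE-CM replicate 3 were added after seeing the data. Estimated fragments without transcript length were tried and dropped for that reason. Permutation tests used 100000 resamples drawn with NumPy 2.4.6, and ranks came from SciPy 1.17.1. The tests were checked on simulated data. Named genes were the 10 members, list genes called within a tissue, up to 4 genes per list with the largest called tissue differences, and the closest gene to each member; others are said to be named after their values were seen. 1 such list gene is not reported here. The members and lists were chosen with earlier results of these data known. In VNO, deviations of same-numbered libraries were weakly correlated for SF with SM (r from 0.122 to 0.204) and SF with CF (r from 0.105 to 0.277). For SM with CF the r values were 0.248, 0.13 and 0.0343. Whether the numbers pair libraries is not settled by these values. The replicates are pools, and p-values measure the spread between pools. Since the sources differ on the number of mice per pool, whether pools of a group share mice is not settled.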

Additional observations from a re-analysis of the deposited data

How the results depend on the processing

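Of the tissue comparisons, Sox10 in OB against VNO reversed to −0.16 (adjusted p = 0.0249) with upper quartile scaling, and Aqp4 in MOE against VNO reversed to −0.093 (adjusted p = 0.0125) with quantile normalization. Sox10 in OB against VNO lay between 0.12 and 0.15 and passed the threshold when only the compared libraries were fitted or when MOE-SF replicate 3, VNO-SF replicate 2, VNO-CM replicate 2 or OB-CF replicate 3 was left out. Ngfr in OB against VNO (−0.13, adjusted p = 0.0782, quantile normalization) and Frzb in MOE against VNO (0.20, adjusted p = 0.185, upper quartile scaling) no longer passed. The number of members called in the tissue comparisons was 10, 9 and 10 and lay between 8 (OB against VNO, quantile normalization) and 10 elsewhere. With only the compared libraries fitted, 9 members were called for OB against MOE and for MOE against VNO, since Ngfr in the first and Gfap in the second fell under the filter. Library weights raised the number of members called to 2 for OB SF against SM, 1 for OB CF against CM, 3 for OB sex, 1 for MOE SF against SM (Sox10, −0.54) and 2 for the MOE interaction (Aqp4, 0.44, and Gja1, 0.49), where it was 0 otherwise, and they raised the called genes of all to 1381, 666 and 1840 in those OB comparisons and to 1777 and 2414 in the MOE ones; the cause was not tested. Of 4054 member values under other settings, 250 changed sign with neither value called.

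Correlated pairs of members in OB numbered 4, against 10 on deviations from the group means, 1 after quantile normalization and 1 to 7 with a library left out. In MOE they numbered 8, against 13, 1 and 2 to 10, with 2 left without MOE-CM replicate 3 or without MOE-CF replicate 1. Members correlated with the summed level of a cell type list in 15 of 150 pairs in OB, against 40 on deviations, 0 after quantile normalization and 8 to 16 with a library left out. In MOE this was 38, against 0 after quantile normalization and 10 to 40 with a library left out, the lowest without MOE-CM replicate 3. The matching counts for other genes were not determined.

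The replicate number was also fitted as a block. Deviations of same-numbered libraries from their group means correlated above 0.1 in 2 of 18 pairs within OB, 2 of 18 within MOE and 8 of 18 within VNO. In VNO all 3 pairs of SF with SM and of SF with CF did so. The numbers were treated as possibly pairing these groups, which the values do not settle. With the replicate block the number of members called was 10, 9 and 10 in the tissue comparisons and 0 in every comparison within a tissue, as without it. In VNO the block gave 8 called genes for SF against SM (10 without it), 6 for CF against CM (6) and 13 for the averaged sexes (17), and it changed no call of a member. Gfap and Npy in the nasal tissues rested on few fragments, and 3 pools a group set the precision.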

Other observations

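For each member, the gene with the closest profile over the libraries was found by Pearson's r of log2(FPKM + 0.5), among genes with a mean of at least 0.5 FPKM; these r values are given as a description. Over all 36 libraries, where the order of the tissues sets most of the variation, the closest gene to Gfap was Myo16 (r = 0.998), to Fabp7 was Tspyl4 (r = 0.996), to Npy was Nsf (r = 0.994) and to Aqp4 was Suco (r = 0.988). Penk was closest to Frzb (r = 0.983) and Zfyve9 to Gja1 (r = 0.984). Nsg2, a neuronal gene, was closest to both Slc1a2 (r = 0.995) and Aldh1l1 (r = 0.992). Sox10 and Ngfr, which did not follow the bulb, had the weakest closest matches, Abtb2 (r = 0.929) and Sidt2 (r = 0.935). Within the 12 OB libraries, the closest gene to Gja1 was Clock (r = 0.982), to Aqp4 was Ckap5 (r = 0.978) and to Slc1a2 was Braf (r = 0.951). For Aldh1l1 it was Slc4a1ap (r = 0.967), for Npy Rpl22 (r = 0.968), for Frzb Btrc (r = 0.966) and for Fabp7 Trappc5 (r = 0.949). Gfap, Ngfr and Sox10 had weaker matches, AW112010 (r = 0.918), Tagap1 (r = 0.889) and 2300009A05Rik (r = 0.875). All of these values come from the same libraries, which share their depth and scaling.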
